A study of Mus musculus with 20 samples.

Results

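The genes described here encode 7 secreted proteins of the extracellular matrix and 2 cell surface receptors that bind matrix ligands. The secreted proteins are osteopontin (Spp1), thrombospondin 1 and 2 (Thbs1 and Thbs2), tenascin C (Tnc), periostin (Postn), osteonectin (Sparc) and fibronectin (Fn1), and the receptors are Cd44 and Cd47. These 9 genes were chosen by name with earlier results of the same mice known, out of 32991 genes with values. A gene's level was the sum of the FPKM (fragments per kilobase of transcript, scaled to the mapped fragments of the library) of its annotated Ensembl transcripts in each mouse. Since the levels and differences of these 9 genes entered their choice, they are given as a description, without a test.

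Colon tissue of 20 male C57BL/6 mice was sequenced, with 1 library per mouse and 5 mice in each of 4 groups. Control mice received double distilled water by gavage for 91 days. PZH mice received Pien Tze Huang, a traditional Chinese medicine formula, at 250 mg/kg/d over the same time. AOM/DSS mice, called Model in the labels, received the water together with azoxymethane (AOM, 12.5 mg/kg), a carcinogen given once by injection, and 2% dextran sulfate sodium (DSS), which injures the colon epithelium, in the drinking water for 5 days in each of 4 cycles. PZH + AOM/DSS mice, called Model + PZH, received AOM, DSS and PZH. The age of the mice is not given in the sources used here, and AOM and DSS were always given together, so that their effects cannot be told apart. The labels name colon as the tissue but speak of another tissue in the extraction text. The colon epithelium markers Cdh1, Vil1 and Krt20 had mean levels of 278 ± 39.7, 237 ± 22.5 and 396 ± 112 FPKM in Control mice (SD, n = 5). Krt18 and Cdx1 were at 325 ± 37.9 and 215 ± 37.7 FPKM, and Cdx2 at 31.8 ± 27.2. The SD of Krt8, at 651 ± 1350 FPKM, exceeded its mean, and Epcam was listed at 0 in all 5 Control mice.

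Matricellular proteins are secreted into the matrix, where they act on cells through integrins and other receptors more than as structural fibres. Osteopontin is a ligand of integrins and of Cd44, the main receptor of hyaluronan, and thrombospondin 1 is a ligand of Cd47, which also binds Sirpa on myeloid cells as a signal against engulfment. Fibronectin is a structural glycoprotein that binds integrins and is often studied together with these proteins, as tissue repair and tumour stroma hold much of them.

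Some facts of the series touch all values. The files list no counts, and only 63.8 to 67.4% of the low values of a mouse lay within 0.02 of a whole multiple of a common step of FPKM times transcript length, so the depth per mouse was not recovered from them. Between 12.1 and 14.8% of the FPKM of a mouse lay in transcripts that the authors had assembled from the reads, which carry no gene name and are missing from the sums. Exact zeros can therefore be failed assignments. Epcam, a gene of every epithelial cell, was listed at 0 in 13 of 20 mice, all 5 Control mice included, and reached 865 FPKM in another mouse. Mouse 35 of the PZH + AOM/DSS group stood apart from the other 4 mice of its group in several genes below, so values are given with and without it. Its level lay between the lowest and highest AOM/DSS mouse for 7 of the 9 genes. As mouse 35 was singled out by such values, P values without it are a description and no test of PZH. In bulk tissue, fewer cells of a type cannot be told apart from less RNA per cell.

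Sequences are shown for the features on which the descriptions below turn. The first set holds the 250 bases before the transcription start of Spp1, the gene of the 9 with the largest difference, and of Postn, which differed in the opposite direction (RefSeq, GRCm38.p6). Capitals mark the letters TATAAA.
Spp1 promoter, chr5:104434861-104435110, plus strand: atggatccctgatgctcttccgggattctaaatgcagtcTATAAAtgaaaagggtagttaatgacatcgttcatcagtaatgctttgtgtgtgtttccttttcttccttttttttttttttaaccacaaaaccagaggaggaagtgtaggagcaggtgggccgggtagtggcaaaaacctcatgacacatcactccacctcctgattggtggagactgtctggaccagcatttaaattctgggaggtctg
Postn promoter, chr3:54360857-54361106, plus strand: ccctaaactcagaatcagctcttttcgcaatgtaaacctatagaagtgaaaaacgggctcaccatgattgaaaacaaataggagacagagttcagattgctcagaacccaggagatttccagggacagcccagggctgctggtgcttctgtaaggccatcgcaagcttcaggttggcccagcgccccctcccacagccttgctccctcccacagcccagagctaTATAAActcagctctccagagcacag

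The second set holds alternatively spliced coding exons, taken from the reference transcripts of GENCODE M21 (GRCm38). Cd44 has 10 variable exons with 1245 bases in all, which lengthen the part of the receptor outside the cell, and the exons shown are contained in different numbers of its 7 coding transcripts. The Fn1 exon of 273 bases is the one known as extra domain B.
Cd44 variable exon 4, chr2:102842836-102842949, minus strand: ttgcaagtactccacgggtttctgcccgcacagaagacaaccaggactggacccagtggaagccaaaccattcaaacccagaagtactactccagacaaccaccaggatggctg
Cd44 variable exon 6, chr2:102839358-102839477, minus strand: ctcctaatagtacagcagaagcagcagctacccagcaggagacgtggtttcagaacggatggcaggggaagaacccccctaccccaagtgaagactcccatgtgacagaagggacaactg
Cd44 variable exon 10, chr2:102831330-102831536, minus strand: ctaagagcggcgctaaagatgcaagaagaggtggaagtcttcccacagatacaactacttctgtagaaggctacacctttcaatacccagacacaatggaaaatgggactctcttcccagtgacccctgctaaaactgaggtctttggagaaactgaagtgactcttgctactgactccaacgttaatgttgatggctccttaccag
Fn1 273-base exon, chr1:71613763-71614035, minus strand: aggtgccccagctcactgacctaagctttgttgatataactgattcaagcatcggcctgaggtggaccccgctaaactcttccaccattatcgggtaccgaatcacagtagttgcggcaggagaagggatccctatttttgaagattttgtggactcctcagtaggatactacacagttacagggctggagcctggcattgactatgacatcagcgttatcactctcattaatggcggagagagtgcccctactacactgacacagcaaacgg

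RefSeq promoters were at hand for 7 of the 9 genes, with none for Thbs1 and Fn1. These 7 genes have 11 promoters, and 12 motifs were searched in them on both strands. The 2 promoters of Tnc overlap each other, as do the 2 of Cd47, so the 11 are not separate. TATAAA stood in 5 of the 11, against 12.4% of 32851 promoters of the same length. It was in 1 of the 2 promoters of Spp1 and of Postn, those shown above, in both of Tnc, where the same letters are counted in each, and in the 1 of Thbs2. In Postn it began 26 bases before the start site of one of its promoters, while in Spp1 and Thbs2 it lay 211 and 126 bases before it. In Thbs2 it was on the opposite strand. The AP-1 letters TGANTCA and the TCF/LEF letters CTTTGAT were in 0 of the 11, and 6.75% and 3.21% of all promoters held them. The SP1 letters GGGCGG were in 4 of 11, the overlapping ones of Tnc and Cd47, against 32.7%, and the NF-kB motif in 2 of 11 against 17.6%. The RUNX letters TGTGGT and the KLF letters CCACCC were in 1 of 11 each, against 14% and 28.1%, and CTTTGAA, TGACGTCA (CRE), CACGTG (E-box), CCGGAAGT (ETS) and GTCTAGAC (SMAD) in 0. These matches describe the letters only.

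**Figure D1:**
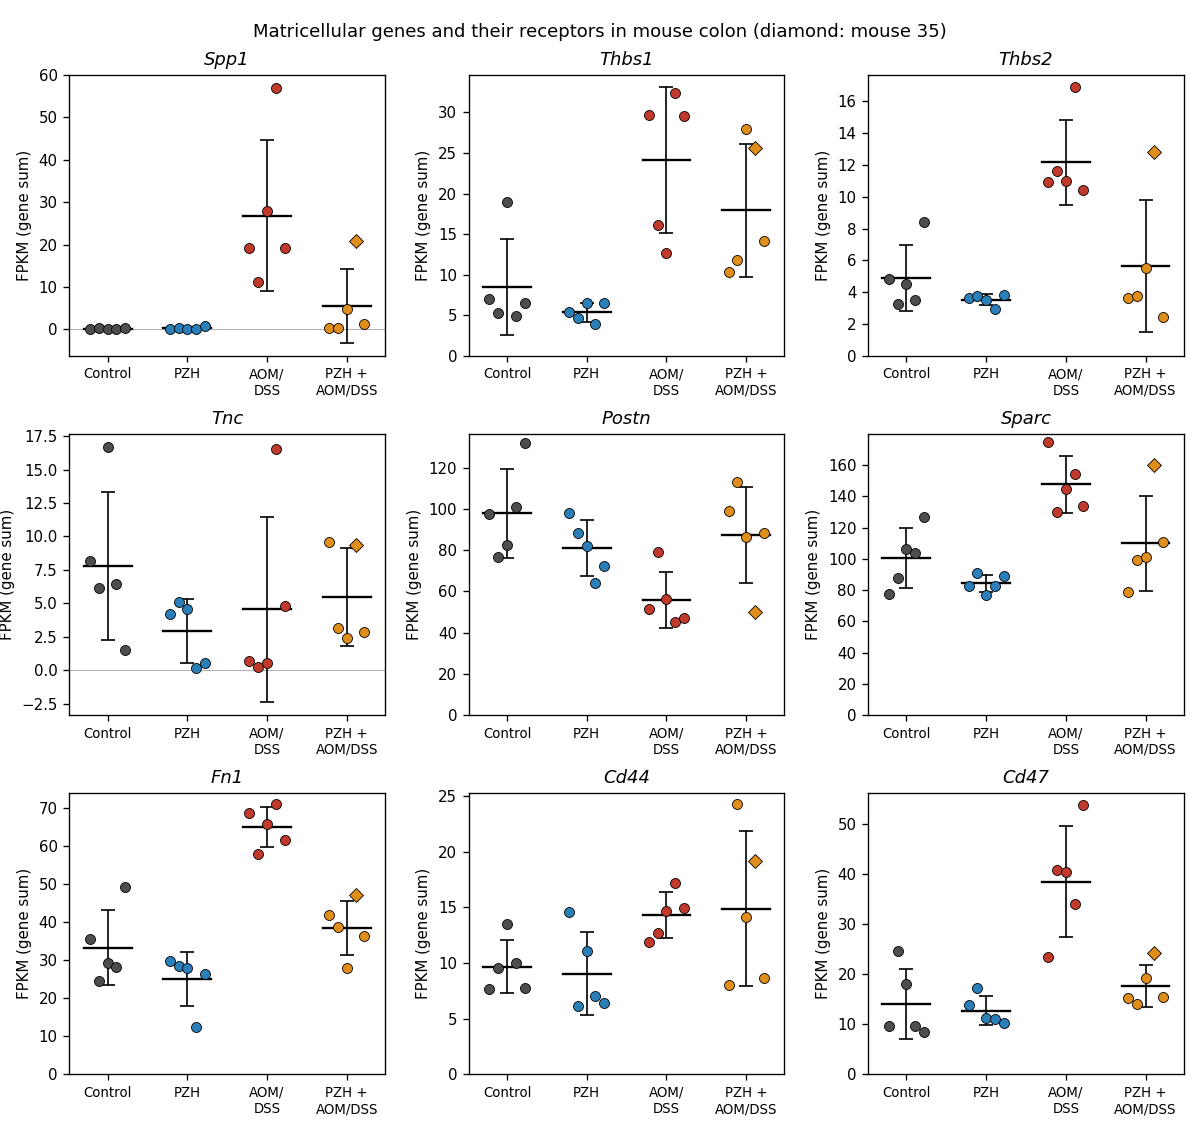
FPKM (y axis) of each gene in each of 20 mice, with 1 point per mouse, by group (x axis). Lines are group means and bars are SDs with n = 5, and the diamond is mouse 35. All 5 AOM/DSS mice lie above all Control mice for Spp1, Thbs2, Sparc and Fn1.

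Spp1, which encodes a secreted phosphoprotein made by macrophages, epithelium and tumour cells, was close to absent in Control mice. Its FPKM was 0.183, 0.232, 0.0341, 0.0826 and 0.249 in these mice and 0.172, 0.217, 0.0408, 0.156 and 0.867 in PZH mice, with the highest value in mouse 53. In AOM/DSS mice it was 19.2, 11.1, 27.8, 57 and 19.1. The AOM/DSS mice overlapped with neither of these groups, and the mean was 26.8 ± 17.9 FPKM in AOM/DSS mice against 0.156 ± 0.0942 in Control mice (SD, n = 5), a difference of 4.39 between the mean log2(FPKM + 1) values, which is the log2 fold change given below. This scale understates differences of genes with low values. With PZH + AOM/DSS the levels were 0.405, 0.371, 4.75, 20.8 and 1.25 FPKM, with 20.8 in mouse 35. Hence 4 of 5 mice lay below the lowest AOM/DSS mouse, and all 5 above the highest Control mouse. Mice 2 and 13, at 0.405 and 0.371, were however below PZH mouse 53 and below 0.5 FPKM, the minimum level used for testing. The mean was 5.52 ± 8.74 FPKM with mouse 35 and 1.7 ± 2.08 without it.

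Thbs2, a secreted inhibitor of angiogenesis, had FPKM of 4.84, 3.23, 4.52, 3.53 and 8.39 in Control mice. The AOM/DSS mice had 10.9, 11.6, 11, 16.9 and 10.4, all above the highest Control mouse. The means were 12.2 ± 2.69 and 4.9 ± 2.06 FPKM, a log2 fold change of 1.20. In the PZH + AOM/DSS mice Thbs2 was at 3.62, 3.76, 5.54, 12.8 and 2.43 FPKM. Only mouse 35, at 12.8, reached the AOM/DSS values. The mean was 5.64 ± 4.18 FPKM in all 5 mice and 3.84 ± 1.28 without mouse 35. PZH mice had 3.64, 3.76, 3.52, 2.95 and 3.83 FPKM, a narrow range inside or just below that of Control mice.

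Thbs1, which activates latent TGF-beta and is released by platelets and stroma, was more spread. Control mice had 6.94, 5.31, 19.0, 4.9 and 6.52 FPKM and AOM/DSS mice 29.7, 16.1, 12.7, 32.4 and 29.6. Control mouse 41, at 19.0, overlapped the AOM/DSS group, whose mean was 24.1 ± 9.02 FPKM against 8.53 ± 5.9. PZH + AOM/DSS mice had 10.3, 11.8, 27.9, 25.6 and 14.1 FPKM. Their mean was 18.0 ± 8.2 FPKM, or 16.0 ± 8.07 without mouse 35, with a log2 fold change of -0.42 to AOM/DSS mice, and 2 of the 5 mice were below the lowest AOM/DSS mouse. In PZH mice Thbs1 was at 5.34, 4.61, 6.57, 3.87 and 6.46 FPKM, below every mouse given AOM and DSS.

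Tnc, a large glycoprotein of wounds and tumour stroma, varied widely within every group. It was at 8.14, 6.16, 16.7, 6.42 and 1.52 FPKM in Control mice and at 0.725, 0.242, 0.528, 16.5 and 4.78 in AOM/DSS mice. The groups overlapped over most of their range, although 3 of 5 AOM/DSS mice lay below the lowest Control mouse. The log2 fold change was -1.21, and the SD of 6.91 FPKM in AOM/DSS mice exceeded the mean of 4.55. PZH + AOM/DSS mice had 9.57, 3.14, 2.41, 9.33 and 2.86 FPKM, with a mean of 5.46 ± 3.65, or 4.5 ± 3.4 without mouse 35, and PZH mice 4.24, 5.09, 4.61, 0.145 and 0.538. The leading form, Tnc-204, was at exactly 0 in 2 AOM/DSS mice and 1 PZH mouse, and such a 0 can be a failed assignment.

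Postn, a protein of collagen-rich stroma that binds integrins, had lower values in 4 of 5 AOM/DSS mice than in any Control mouse. Control mice had 97.4, 76.6, 82.7, 101 and 132 FPKM and AOM/DSS mice 51.4, 79.3, 56.3, 45.3 and 47.2. AOM/DSS mouse 30, at 79.3, was within the Control range. The means were 55.9 ± 13.7 and 97.8 ± 21.4 FPKM, a log2 fold change of -0.80. With PZH + AOM/DSS, Postn was at 99.2, 113, 86.5, 50 and 88.6 FPKM. Here 4 mice lay above the highest AOM/DSS mouse and mouse 35, at 50, among the AOM/DSS mice. The mean was 87.5 ± 23.5 FPKM, or 96.9 ± 12.3 without mouse 35. PZH mice had 98.3, 88.5, 82.3, 64.0 and 72.6 FPKM, 2 of them below the lowest Control mouse.

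Sparc, which binds collagen and shapes its fibrils, was the most abundant of the 9 genes in every group. Control mice had 77.5, 88.0, 106, 104 and 127 FPKM and AOM/DSS mice 175, 130, 145, 154 and 134, without overlap. The mean difference was 0.56 on the log2 scale, from 100 ± 18.8 to 148 ± 18.1 FPKM. PZH + AOM/DSS mice had 78.6, 99.0, 101, 160 and 111 FPKM. All but mouse 35, at 160, were below the lowest AOM/DSS mouse, and the mean was 110 ± 30.4 FPKM with mouse 35 and 97.5 ± 13.7 without it. PZH mice had 82.8, 90.8, 76.9, 82.3 and 88.9 FPKM, the least spread of the 4 groups.

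Fn1 was at 35.6, 24.5, 29.2, 28.3 and 49.3 FPKM in Control mice and at 68.8, 58.1, 65.9, 71.1 and 61.7 in AOM/DSS mice. These groups did not overlap, with means of 65.1 ± 5.25 and 33.4 ± 9.75 FPKM and a log2 fold change of 0.98. PZH + AOM/DSS mice had 42.0, 38.8, 27.9, 47.3 and 36.5 FPKM. Fn1 was the only gene of the 9 for which no PZH + AOM/DSS mouse, mouse 35 included, reached the lowest AOM/DSS mouse. The mean was 38.5 ± 7.2 FPKM, or 36.3 ± 6.06 without mouse 35, and all 5 mice lay within the Control range. PZH mice had 29.8, 28.6, 28.0, 12.5 and 26.3 FPKM, with the lowest value of all 20 mice in mouse 46.

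The receptor Cd44 was at 7.68, 9.54, 13.5, 9.95 and 7.71 FPKM in Control mice and at 11.9, 12.7, 14.7, 17.2 and 14.9 in AOM/DSS mice. The groups overlapped through Control mouse 41, and the means were 9.69 ± 2.39 and 14.3 ± 2.08 FPKM. PZH + AOM/DSS mice had 8.03, 24.3, 14.1, 19.2 and 8.63 FPKM. They spread over and beyond the whole AOM/DSS range, and the mean was 14.9 ± 6.98 FPKM, or 13.8 ± 7.55 without mouse 35, against 14.3 in AOM/DSS mice. The difference of the mean log2 values was -0.05, and 0.13 without mouse 2, so that no direction can be given. In PZH mice Cd44 was at 14.6, 6.12, 11.1, 7.0 and 6.41 FPKM, both above and below the Control range.

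Cd47 was at 9.68, 24.7, 18.0, 9.56 and 8.51 FPKM in Control mice and at 23.4, 40.9, 40.4, 34.1 and 53.9 in AOM/DSS mice. Control mouse 37, at 24.7, lay just above the lowest AOM/DSS mouse. The means were 38.5 ± 11.1 and 14.1 ± 7.05 FPKM, a log2 fold change of 1.46. With PZH + AOM/DSS it was at 15.2, 14, 19.3, 24.2 and 15.5 FPKM. These are below the AOM/DSS range except for mouse 35, at 24.2, and within the Control range, and the mean was 17.6 ± 4.17 FPKM, or 16.0 ± 2.31 without mouse 35. PZH mice had 13.8, 17.2, 11.3, 11.1 and 10.2 FPKM, all inside the Control range.

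In the limma comparison of AOM/DSS with Control over 15812 genes, 8 of the 9 genes passed an adjusted P of 0.05, which 23.6% of all genes tested did. Tnc did not pass, and Postn was the 1 that passed as lower, as 7.23% of all genes did, with the other 7 among the 16.4% that passed as higher. With the values scaled by the median of ratios, 7 of the 9 passed, 6 as higher, and Cd44 no longer did. Then 53.2% instead of 69.4% of the genes that passed were higher. Cd44 also failed to pass without the filter and with all 20 mice in 1 model. The same held when Control mouse 17, 37, 48 or 50 or AOM/DSS mouse 33, 44 or 52 was left out. The study's criteria were a fold above 2 and an unadjusted P under 0.05. Applied here to gene sums in limma, they took Spp1, Thbs1, Thbs2 and Cd47 as higher, with 5.85% of all genes. For 4 of the 9 genes all AOM/DSS mice lay above all Control mice, as for 13% of all genes. The comparison of PZH + AOM/DSS with AOM/DSS uses the same AOM/DSS mice. There, 15888 genes were tested and 0 of the 9 passed the adjusted P in limma, against 0.00629% of all genes (1 gene), while 6 of the 9 and 11.7% of all genes had an unadjusted P under 0.05. Spp1, Thbs2 and Cd47 met the study's criteria as lower, as did 2.01% of all genes, and Fn1 was lower without overlap, as were 0.673%. Without mouse 35, 6 of the 9 genes passed the adjusted P (Spp1, Thbs2, Sparc, Fn1 and Cd47 as lower, Postn as higher), and 5.08% of all genes did. In PZH against Control, 8 of the 9 genes were tested, as Spp1 did not reach the minimum of 0.5 FPKM in 5 mice. Of these, 0 passed the adjusted P in limma, which 0.00645% of 15506 genes did, 0 met the study's criteria, against 0.69%, and 0 had an unadjusted P under 0.05, against 8.84%. Since results of these comparisons chose the 9 genes, nothing is read from these counts.

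The order of the mean levels, which FPKM allows as it is per transcript length, changed mainly below Sparc. In Control mice it was Sparc, Postn, Fn1, Cd47, Cd44, Thbs1, Tnc, Thbs2 and Spp1. The values of neighbours in this order overlapped, except for Postn and Fn1 and for Thbs2 and Spp1. In AOM/DSS mice Spp1 was the fifth, between Cd47 and Thbs1, and Fn1 was above Postn. Here only Sparc and Fn1 were neighbours without overlap. Postn was again above Fn1 in PZH + AOM/DSS mice, without overlap, and Spp1 was the eighth. The place of Fn1 rests on Fn1-202, a transcript with no coding sequence that held 72.3% of the Fn1 FPKM over all mice. The protein-coding transcripts of Fn1 had a mean of 8.57 FPKM in AOM/DSS mice, below the 52.5 of those of Postn.

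How the FPKM of a gene was divided over its transcripts was not used in choosing the genes. The share of the leading transcript, the one with the highest mean over 20 mice, was compared for 8 genes in 3 comparisons with exact two-sided permutation tests. Thbs2 had 1 transcript with values. With 5 mice against 5 the smallest possible p is 0.00794. A single test at this value cannot pass 0.05 after adjustment over 24 tests, even with fully separate groups. Of the 24 tests, 0 passed an adjusted p of 0.05 while 3 had an unadjusted p under 0.05.

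The clearest division was that of Cd44. Cd44-203, the form of 9 coding exons without a variable exon, held 52.5, 51.2, 56.7, 51.4 and 46.3% of the Cd44 FPKM in Control mice. In AOM/DSS mice it held 18.9, 16.5, 16.0, 14.7 and 15.5%. The mean share was 16.3 ± 1.61% against 51.6 ± 3.73% (SD, n = 5), and the groups did not overlap. It was lower by 35.3 percentage points (exact permutation p = 0.00794, adjusted p = 0.0952 over 24 tests). The adjusted value does not pass 0.05, and could not with so few tests at the smallest p. The share in PZH + AOM/DSS mice was 19.1, 57.4, 16.4, 16.4 and 15.1%, with 57.4% in mouse 13. The mean share was 8.58 percentage points above that of AOM/DSS mice (exact permutation p = 0.302, adjusted p = 0.771), and 0.448 points above it without mouse 13. Mouse 35 was at the level of the other mice here. In PZH mice it was 21.7 to 63.9%, with both high and low mice.

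**Figure D2:**
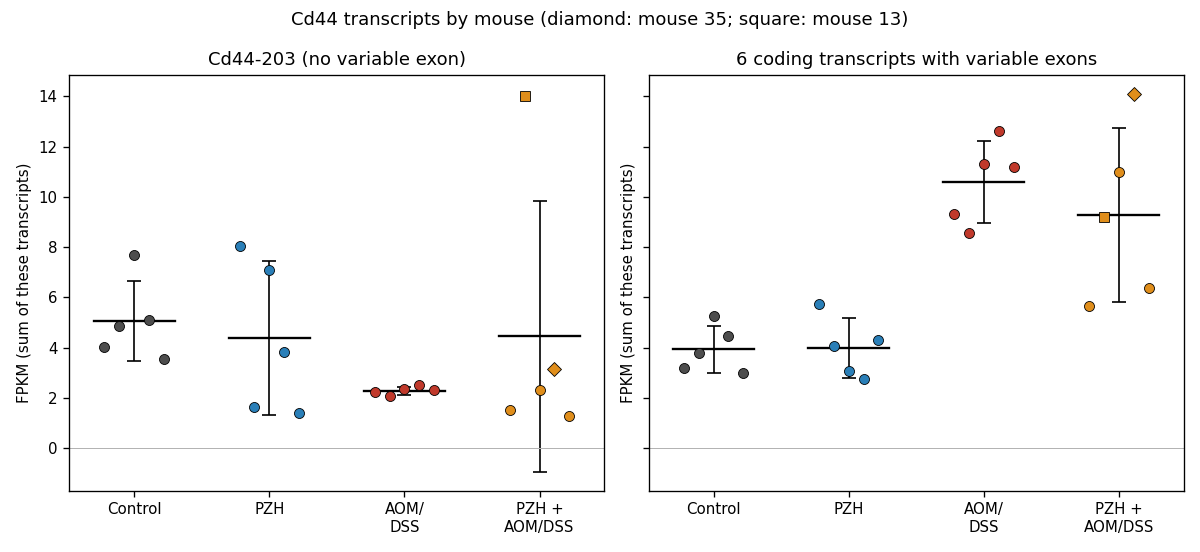
FPKM (y axis) of Cd44-203, which has no variable exon (left), and of the sum of the 6 coding transcripts with variable exons (right), with 1 point per mouse by group (x axis). Lines are means and bars SDs with n = 5, the diamond is mouse 35 and the square mouse 13. The transcripts with variable exons lie between 8.56 and 12.6 in AOM/DSS mice and between 3.0 and 5.27 in Control mice.

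In FPKM, the 6 coding Cd44 transcripts with variable exons summed to 3.2, 3.79, 5.27, 4.46 and 3.0 in Control mice and to 9.33, 8.56, 11.3, 12.6 and 11.2 in AOM/DSS mice. Cd44-203 itself was at 3.57 to 7.68 FPKM in Control mice and at 2.08 to 2.52 in AOM/DSS mice, again without overlap. The higher gene sum in AOM/DSS mice thus lay in the transcripts with variable exons. In PZH + AOM/DSS mice these summed to 5.66, 9.19, 11, 14.1 and 6.36 FPKM, all above the highest Control mouse. The largest part was Cd44-201, which has all 10 variable exons, at a mean of 6.3 FPKM in AOM/DSS mice and 1.82 in Control mice.

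The shares of the exons printed above come from the same transcript FPKM and restate this division by position. Variable exon 10, of 207 bases, is in 6 of the 7 coding transcripts. It was carried by 44.2 ± 2.26% of the coding Cd44 FPKM in Control mice and 82.0 ± 1.4% in AOM/DSS mice. Variable exon 6, of 120 bases, which is known from the forms of intestinal stem cells and tumours, is in 4 transcripts and was carried by 41.8 ± 5.36% and 74.3 ± 3.11%. Variable exon 4 is in 2 transcripts only. Its values of 26.9 ± 19.9% and 62.7 ± 12.9% had wider ranges, 4.94 to 43.7% and 40.5 to 72.5%, which overlap. These shares follow from the FPKM that StringTie assigned to whole transcripts, not from reads over exon junctions.

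**Figure D3:**
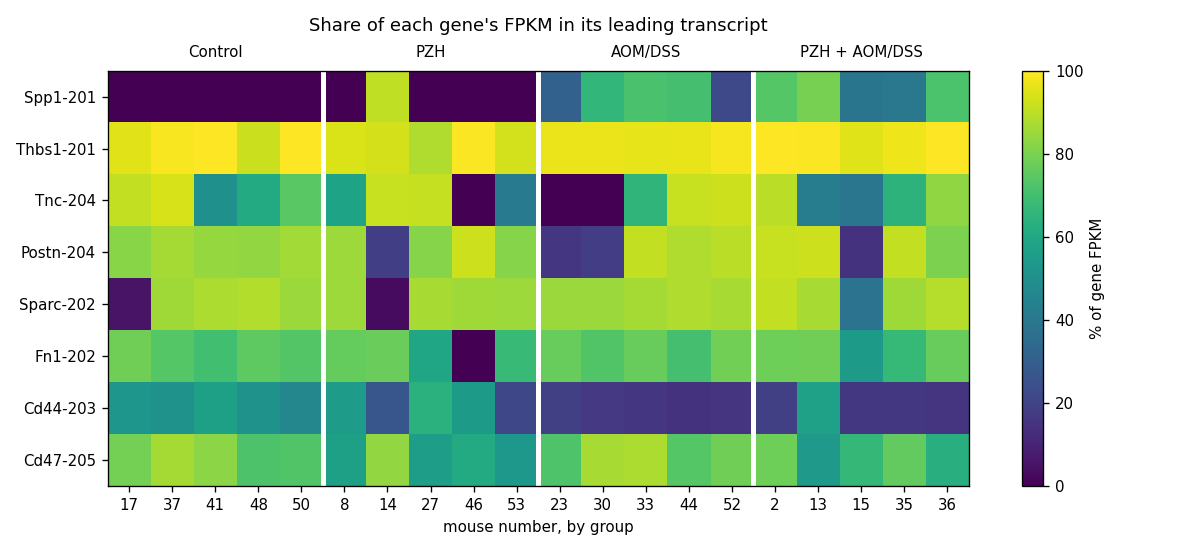
Share of each gene's FPKM in its leading transcript (colour, %), for 8 genes (rows) in 20 mice (columns, by group). Cd44-203 is lower in all AOM/DSS mice than in all Control mice, and Sparc-202, Postn-204 and Fn1-202 drop in single mice.

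In the other genes the division over transcripts was uniform or varied by mouse. Thbs1-201 held 87.9 to 99.8% of the Thbs1 FPKM over all mice. Sparc-202 held 84.8 to 90.7% in 17 mice and 5.44, 2.94 and 38.2% in mice 17, 14 and 15, where most of the sum was listed under Sparc-201. Postn-204 was replaced in the same way by Postn-201 in mice 14, 15, 23 and 30. The Sparc and Postn gene sums of these mice did not stand apart by Dixon's test. Spp1-201 held 52.2 ± 23.7% of the Spp1 FPKM in AOM/DSS mice and 0% in Control mice (exact permutation p = 0.00794, adjusted p = 0.0952), but the gene was under 0.25 FPKM in the latter. Cd47-205 held 78.7 ± 6.26% in Control mice and 62.1 ± 12.3% in PZH mice (exact permutation p = 0.0397, adjusted p = 0.317).

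Fn1 needs a remark on its transcripts. Fn1-202, an annotated form with a retained intron and no coding sequence, was the leading transcript with 72.3% of the Fn1 FPKM over all mice, and protein-coding transcripts held 14.6%. Coding Fn1 transcripts summed to 8.57 ± 1.31 FPKM in AOM/DSS mice and 3.98 ± 1.74 in Control mice, a log2 difference of 1.03, close to that of the gene sum. For PZH + AOM/DSS the coding sum was 6.15 ± 1.8 FPKM, with 4.48 to 8.7 against 7.0 to 10.3 in AOM/DSS mice. The absence of overlap seen in the gene sum was therefore not seen in the coding transcripts. Of the 7 coding transcripts with at least 40 coding exons, 1 contains the exon of 273 bases printed above. It held 17.6, 0.147, 11.5, 15.9 and 18.0% of their FPKM in Control mice and 25.7, 21.2, 28.9, 21.9 and 21% in AOM/DSS mice. The AOM/DSS mice were all higher, whereas PZH mice, at 14.2 to 37.3%, and PZH + AOM/DSS mice, at 0.256 to 25.2%, overlapped them. The exon of 270 bases known as extra domain A, in 4 of these transcripts, was at 70.0 ± 8.64% in Control and 72.6 ± 5.2% in AOM/DSS mice. The transcript with the 273-base exon, Fn1-201, was low, at 0.00164 to 0.702 FPKM in Control mice and 1.45 to 2.37 in AOM/DSS mice. These exon shares rest on FPKM that StringTie assigned to whole transcripts and were not tested.

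Other genes of the same systems, 70 in 4 lists, were tested in the same model. The lists were also drawn up with earlier results known. In AOM/DSS against Control, 28 of the 59 tested passed the adjusted P of limma, 22 as higher and 6 as lower, beside 23.6% of all genes. With median of ratios scaling 30 passed, 22 of them as higher. The median log2 fold changes were 0.20 for other matricellular genes, 0.26 for integrins and other receptors, 0.37 for hyaluronan genes and 0.66 for TGF-beta genes, and 0.09 for all genes.

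**Figure D4:**
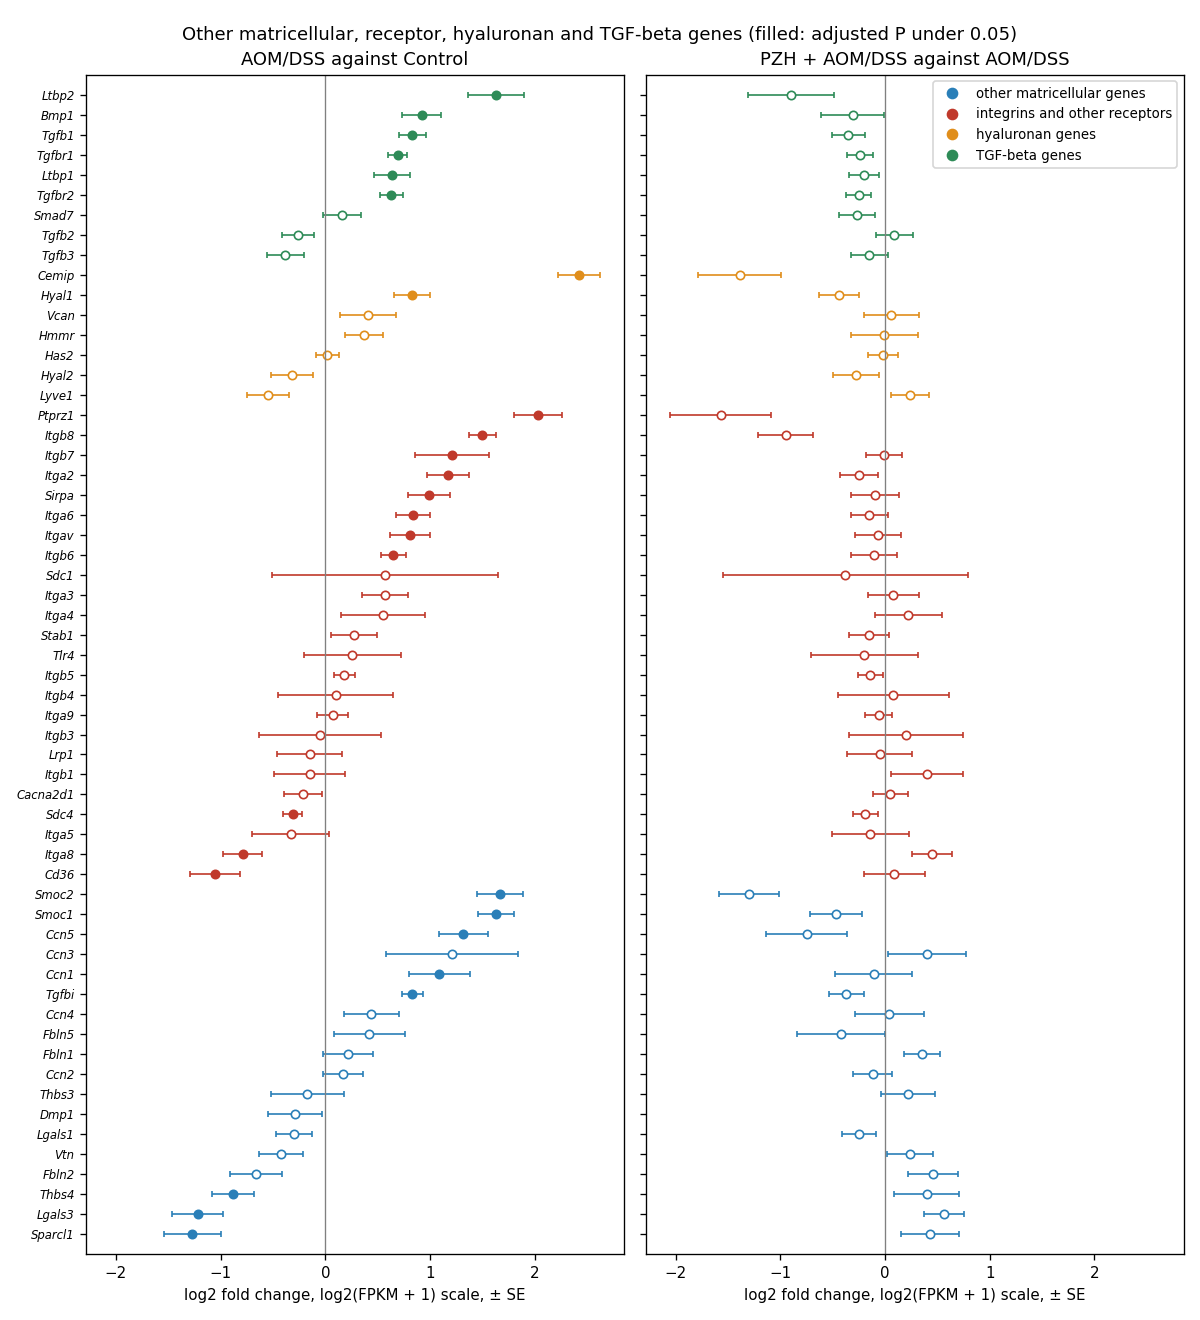
Log2 fold change on the log2(FPKM + 1) scale with its SE (x axis) of the tested genes of the 4 lists (y axis), 1 gene of the TGF-beta list left out, in AOM/DSS against Control (left) and PZH + AOM/DSS against AOM/DSS (right). Filled points passed an adjusted P of 0.05 in limma, 27 of the points drawn on the left and 0 on the right.

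Among the other matricellular genes, 5 of the 18 tested rose and 3 fell. Smoc2, a relative of Sparc that is also expressed in intestinal stem cells, rose from 8.83 ± 2.3 to 30.5 ± 9.17 FPKM (log2 fold change 1.67 ± 0.22 SE, adjusted P = 0.000466, limma). Its paralogue Smoc1 rose from 0.909 to 4.92 FPKM on average (log2 fold change 1.63) and Ccn5, a CCN family protein, from 0.43 to 2.7 (1.32). Sparcl1, the nearest relative of Sparc and a gene of stroma and vessels, fell from 128 ± 42 to 53.4 ± 19.2 FPKM (log2 fold change -1.27 ± 0.27, adjusted P = 0.00686, limma). Sparc and Sparcl1 thus differed in direction. Lgals3, the lectin galectin 3, fell from 894 to 375 FPKM (-1.22). The third to fall, Thbs4, is named here after its values were seen, and its log2 fold change was -0.88.

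Of the 24 integrins and other receptors tested, 8 rose and 3 fell. The largest rise was that of Ptprz1, a receptor phosphatase that binds tenascins, from 1.9 ± 0.563 to 11.1 ± 4.44 FPKM (log2 fold change 2.03 ± 0.23, adjusted P = 0.000189, limma). The integrin subunits Itgb8, whose dimer activates TGF-beta, Itga2, a collagen receptor chain, and Itgb7, of gut-homing leukocytes, rose by 1.5, 1.17 and 1.21 on the log2 scale. Cd36, a thrombospondin receptor and fatty acid transporter, fell from 8.41 ± 3.18 to 3.45 ± 1.00 FPKM (-1.05 ± 0.24, adjusted P = 0.00984, limma). It is thus opposite in direction to Thbs1, Thbs2 and Cd47.

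Of the 7 hyaluronan genes tested, Cemip and Hyal1, both of which take part in hyaluronan breakdown, rose and none fell. Cemip went from 0.332 ± 0.217 to 6.3 ± 2.18 FPKM, a log2 fold change of 2.42 ± 0.20 (adjusted P = 2.42e-05, limma), the largest of the 4 lists. Hyal1 rose by 0.83. Of the 10 TGF-beta genes tested, 7 rose and none fell. The ligand Tgfb1 rose from 10.1 ± 1.8 to 18.5 ± 1.24 FPKM (log2 fold change 0.83 ± 0.13, adjusted P = 0.00118, limma) and its receptor chain Tgfbr1 by 0.69. Ltbp2, of the latent TGF-beta binding family, rose by 1.63 and the protease Bmp1 by 0.92.

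In PZH + AOM/DSS against AOM/DSS, 0 of the 60 genes tested in the lists passed the adjusted P of limma, and 7 had an unadjusted P under 0.05, as had 11.7% of all genes. Smoc2, Ptprz1 and Cemip met the study's criteria as lower, which 2.4% of all genes met in either direction. Their log2 fold changes were -1.3 ± 0.29, -1.57 ± 0.48 and -1.39 ± 0.4 (adjusted P = 0.356 for each, limma). Without mouse 35 they were -1.54, -1.99 and -1.73, with adjusted P = 0.00781, 0.0146 and 0.0144 in limma. Then 6 genes of the lists passed, beside 5.08% of all genes. This mouse was singled out by its values in these data, so these P values are no test of PZH. When any other single mouse was left out, at most 3 of all genes passed. In PZH against Control, 0 of 55 genes passed either criterion in limma, and 7 had an unadjusted P under 0.05, beside 8.84% of all genes.

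Some markers of other cell types also differed in these comparisons. All 7 smooth muscle markers fell in AOM/DSS against Control, among them Acta2 with a log2 fold change of -1.33 and Myh11 with -1.49 (adjusted P = 0.0028 and 0.0172, limma). Their summed level was 2290 to 5280 FPKM in Control mice 1020 to 1780 in AOM/DSS mice, 900 to 2360 in PZH + AOM/DSS mice and 1080 to 2480 in PZH mice. Of the 5 neutrophil markers, the 4 tested rose. Retnlg, of mature neutrophils, rose from 0.295 to 24.9 FPKM, and the summed level of the 5 markers was 0.188 to 30.3 FPKM in Control mice, 97.7 to 538 in AOM/DSS mice and 5.07 to 267 in PZH + AOM/DSS mice, with 267 in mouse 35 and at most 88.6 in the other 4. In the 7 macrophage markers, of a cell type that makes Spp1, 3 rose and the median log2 fold change was 0.46. The summed macrophage level was 143 to 270 FPKM in Control mice, 208 to 301 in AOM/DSS mice and 146 to 328 in PZH + AOM/DSS mice, with 328 in mouse 35. Fibroblast markers, of the cells that make most of the matrix, were divided, with Col1a1 and Pdgfra higher and Lum and Dpt lower. The summed fibroblast level was 375 to 641 FPKM in Control mice and 435 to 559 in AOM/DSS mice. Of the other marker lists, 2 of 6 endothelial, 2 of 4 T cell and 1 of 5 B cell and plasma cell markers rose, and 1 of 7 colon epithelium markers, 2 of 3 enteric glia markers and the 1 adipocyte marker tested fell. Of all genes tested, 16.4% passed as higher and 7.23% as lower. For the platelet and squamous epithelium markers, 0 of 3 each passed in limma, and of these 6 only the platelet marker Itga2b had an unadjusted P under 0.05. With PZH + AOM/DSS against AOM/DSS, 0 markers of any list passed the adjusted P in limma. Among the markers, 9 had an unadjusted P under 0.05, as had 11.7% of all genes. Of these 9, the 4 neutrophil markers tested met the study's criteria as lower and the adipocyte marker Cfd as higher. Of all genes, 2.4% met them in either direction. Without mouse 35, 4 markers passed the adjusted P in limma as lower, the neutrophil markers Cxcr2 (adjusted P = 0.00563) and Retnlg (0.0253), the fibroblast marker Col1a1 (0.0245) and the squamous marker Krt14 (0.0405). Of all genes, 5.08% passed then. Mouse 35 also had the highest summed levels of its group for squamous epithelium (56.6 FPKM against 2.44 to 9.02), platelets (31.5 against 15.1 to 20), endothelium (39.2 against 25.5 to 30.9) and fibroblasts (529 against 418 to 518), and the lowest for smooth muscle (900 against 1010 to 2360) and enteric glia (1.78 against 3.07 to 4.75). In PZH against Control, 0 markers passed in limma and 11 had an unadjusted P under 0.05, all as lower, beside 8.84% of all genes. Of these 11, 5 were smooth muscle markers, whose list had a median log2 fold change of -0.75. The part of these markers in the levels of the 9 genes was not tested.

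For each of the 9 genes, the 3 genes with the most like profile over the 20 mice were found by the root mean square difference of centred log2(FPKM + 1) values, among 14139 genes with a mean of at least 1 FPKM. For Spp1, whose own SD over the mice was 2.01, these were Habp2, Sp5 and Nkd1, with differences of 0.36, 0.44 and 0.49. They had means of 16.7, 21.3 and 84.2 FPKM in AOM/DSS mice and 0.211, 0.107 and 4.24 in Control mice. For Thbs2, Wipf3, Ddah2 and Pdlim7 were the nearest (0.21 to 0.23, own SD 0.73), and for Thbs1 they included Chn2 and Ptgs2 (0.39 and 0.43, own SD 0.95). Postn was most like Mrgprf, Aoc3 and Fam129a (0.18 to 0.20, own SD 0.43), and Sparc like Spin1, Ncs1 and Anxa6 (0.18 to 0.19, own SD 0.37). For Fn1 they were Syngr1, Fstl1 and Emilin2 (0.27 to 0.30, own SD 0.61), for Cd44 Morc2a, Bcl6 and Zfp566 (0.30, own SD 0.51), and for Cd47 Crlf2, Pgf and Chst11 (0.39, own SD 0.74). Tnc had no near neighbour. The difference to Gas1, its nearest, was 0.93 with an own SD of 1.22.

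The library preparation is not stated to keep the strand, so overlapping genes cannot be told apart. Annotated genes overlap Spp1, Thbs1, Tnc, Fn1 and Cd44, and those with values had a mean of at most 0.34 FPKM over the 20 mice.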

How the data were processed

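Libraries were made from colon RNA depleted of rRNA, per the labels. The deposited values are FPKM per transcript, which the authors obtained with StringTie from reads aligned to mm10 (GRCm38), and each of the 20 mice has 1 file of 118434 transcripts. Of these, 22252 were assembled by the authors and carry no gene name. The FPKM of the other transcripts were summed per gene with GENCODE M21, which gave 32991 genes, while 150 Ensembl transcripts were not in that release. FPKM are not counts, so no count model was used.

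The test was limma 3.58.1 (R 4.3.3), with an intensity trend, on log2(FPKM + 1). Genes entered it when 5 or more of the 10 mice compared had 0.5 FPKM or more. P values are two-sided and were adjusted over all genes tested (Benjamini-Hochberg), with calls at 0.05. The criteria of the study, a fold above 2 and an unadjusted P under 0.05, gave a second call. The study applied them to transcripts with DESeq, and here they were applied to gene sums in limma, so these are not the study's own calls. The fold is taken on the log2(FPKM + 1) scale. Transcript shares were compared by exact permutation. The scripts were tested on simulated data. The 9 genes, the lists and the markers were chosen with earlier results of these data known. Besides the 9 genes, the text names per list and comparison up to 5 genes with the largest change among those called and with at least 1 FPKM in the higher group, the 3 most like genes of each of the 9, and markers. A gene that this rule would name is not reported here, but the counts and medians of its list include it. Mouse numbers are those of the sample titles. Each mouse is a separate animal, and cages or batches are not given in the sources used here. Alternatives were another pseudocount, no filter, scaling by the median of ratios, all 20 mice in 1 model, no trend, leaving out each mouse, a log2 ratio in place of the share and, added after seeing the data, protein-coding transcripts only.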

Additional observations from a re-analysis of the deposited data

Results flagged for a closer look

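By Dixon's test, 1 mouse stood apart from the other 4 of its group in 15 of 67 group values of the 9 genes. The nominal rate of 1 in 20, or 3.35, holds for independent normal values. Skewed FPKM and bounded shares of the same mice are not such values, so nothing is read from the excess. The values are the FPKM of the genes and the shares of their leading transcripts.

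Among the gene levels, Spp1 was at 0.867 FPKM in PZH mouse 53 against 0.0408 to 0.217 in the other 4, and at 20.8 in PZH + AOM/DSS mouse 35 against 0.371 to 4.75. Thbs1 was at 19.0 FPKM in Control mouse 41 against 4.9 to 6.94. AOM/DSS mouse 44 stood apart in 2 genes, with 16.9 FPKM of Thbs2 against 10.4 to 11.6 and 16.5 FPKM of Tnc against 0.242 to 4.78. Fn1 was at 12.5 FPKM in PZH mouse 46 against 26.3 to 29.8.

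Among the transcript shares, PZH mouse 14 stood apart in 4 genes. Spp1-201 held 90.6% of the Spp1 FPKM there and 0% in the other 4 PZH mice, Postn-204 held 18.7% against 81.9 to 92.5%, Sparc-202 held 2.94% against 85.3 to 86.9%, and Cd47-205 held 83.7% against 53.5 to 61.0%. In PZH + AOM/DSS mouse 15, Postn-204 held 14.5% against 80.2 to 92.2% and Sparc-202 held 38.2% against 85.9 to 90.7%. Sparc-202 held 5.44% in Control mouse 17 against 84.8 to 88.6%. Fn1-202 was listed at 0% in PZH mouse 46 against 59.1 to 77.0%, in the mouse whose Fn1 sum was also the lowest. Cd44-203 held 57.4% in PZH + AOM/DSS mouse 13 against 15.1 to 19.1%.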

How the results depend on the processing

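No paired analysis was possible because the groups share no replicate numbers. In AOM/DSS against Control, the study's criteria took 1219 genes, and 2049 with a pseudocount of 0.1. In PZH + AOM/DSS against AOM/DSS they took 382 genes and 3 of the listed relatives, and 695 and 5 with that pseudocount, and in PZH against Control 107 genes and 0 relatives, and 237 and 1. The smaller pseudocount enlarges fold changes of low genes by construction, as for Spp1 (6.59 in place of 4.39). In PZH + AOM/DSS against AOM/DSS, 1 gene and 0 relatives passed the adjusted P, 0 genes without the filter, and 89 genes, 2 relatives and, of the 9 genes, Spp1 as lower with all 20 mice in 1 model. That model gave 0 genes in PZH against Control in place of 1. The cause was not tested.

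Leaving out each mouse in turn gave 2789 to 3588 genes (adjusted P) and 1150 to 1345 (study's criteria) in AOM/DSS against Control, with 24 to 28 and 13 to 15 relatives. In PZH + AOM/DSS against AOM/DSS it gave 1 to 807 and 279 to 622 genes, with 0 to 6 and 3 to 7 relatives, each highest without mouse 35. Relatives meeting the study's criteria were 5 without AOM/DSS mouse 30. In PZH against Control it gave 1 to 2 and 88 to 145 genes, with 0 relatives throughout. The lower share of Cd44-203 in AOM/DSS had a p of 0.00794, the smallest these tests can give, also when any mouse was left out, which says nothing on its stability. The adjusted p was 0.0952 to 0.19. In these runs the leading transcript stayed the one chosen over all 20 mice. With protein-coding transcripts only, chosen after seeing the data, Fn1 moved from -0.76 to -0.45 in PZH + AOM/DSS against AOM/DSS and from -0.42 to 0.24 in PZH against Control. Of the counts under the alternatives, 191 others stayed within 1.5 times of the reported ones. Among the log2 fold changes of the 9 genes, Cd44 in PZH + AOM/DSS against AOM/DSS (-0.25 to 0.13) and Cd47 in PZH against Control (-0.18 to 0.18) changed sign in 3 of 13 alternatives each and Fn1 in PZH against Control in 1, as just given. Depth cannot be stated as counts, and Spp1 in Control and PZH mice lies below the filter.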
